A study of Homo sapiens with 6 samples.

Results

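The genes described here encode proteins that carry a cell through mitosis and that hold division back until every chromosome is attached to the spindle. They were 39 named genes, and 39 of them were found among the 28058 genes of the deposited table, which gives RPKM on hg38 (reads per 1000000 assigned reads, divided by the gene's length in kilobases). The cells were MDA-MB-231, a human triple-negative breast adenocarcinoma line, grown in DMEM with serum. One group of 3 libraries, shCTL, carried a control short hairpin RNA (named shScr in the table), and the other group of 3 libraries, shHSF1, carried an shRNA against HSF1, the transcription factor of the heat shock response. The labels give no time after the hairpin was introduced, no hairpin sequence, and do not state separate cultures. The table's column names carry the letters TGL and, before the replicate number, cl, which no label explains, so whether the replicates are separate clones or cultures is not known, and the p-values reflect no more than the scatter of these libraries. In these bulk samples, a change in the share of dividing cells and a change in RNA per dividing cell cannot be told apart.

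As background, entry into mitosis is driven by CDK1 bound to a B-type cyclin. The spindle checkpoint proteins BUB1, BUBR1 (from BUB1B), BUB3, MAD2 (from MAD2L1) and MPS1 (from TTK) act at unattached kinetochores and restrain CDC20, the activator of the anaphase-promoting complex (APC/C). Once chromosomes are attached, APC/C destroys securin and cyclin B, separase cuts cohesin, and the spindle midzone and the contractile ring divide the cell. Transcription of such genes in G2 is known to run through the MuvB complex with B-MYB and FOXM1 at a promoter element called CHR, and through the factor NF-Y at CCAAT boxes.

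HSF1 itself checks the labels. Its level was 61.2, 53.3 and 47.9 RPKM in shCTL and 5.01, 4.7 and 3.84 RPKM in shHSF1, with values given here and throughout in the order of replicates 1, 2 and 3. It fell 12-fold, and a two-sided exact permutation test gave p = 0.1, which is the lowest value possible with 10 splits. Between 33988307 and 70449758 reads per library were assigned to genes. Markers of the line were present: VIM was at 1903 against 2076 RPKM and AXL at 235 against 214 RPKM (shCTL against shHSF1), neither of them called, while CD44 was called 1.48-fold higher (104 against 153 RPKM, limma adjusted p = 0.00568) and EGFR 1.57-fold lower (77.5 against 49.3 RPKM, limma adjusted p = 0.000293). The 4 summed to between 2306 and 2335 RPKM in shCTL and between 2388 and 2654 RPKM in shHSF1, most of it VIM. Of 6 luminal markers, ESR1 (0.0303 against 0.0351 RPKM), PGR (0.114 against 0.0510 RPKM) and CDH1 (0.0230 against 0.0280 RPKM) were near 0. The other 3 moved with the groups: GATA3 was 2.44-fold higher (1.79 against 4.38 RPKM, limma adjusted p = 0.000255), EPCAM 1.79-fold higher (4.62 against 8.26 RPKM, limma adjusted p = 0.00381) and ERBB2 1.34-fold lower (10.6 against 7.88 RPKM, limma adjusted p = 0.0275), the last not called without shCTL 1, 2 or 3 (0.0581 to 0.0796). The luminal list summed to between 16.7 and 17.5 RPKM in shCTL and between 19.9 and 21.6 RPKM in shHSF1. Of 8 immune, endothelial and fibroblast markers 2 had a mean of at least 0.5 RPKM, CD68, which was not called, and COL1A1, called higher (1.54 against 2.62 RPKM, limma adjusted p = 0.0194) but not without shCTL 1, shCTL 3, shHSF1 1 or shHSF1 2 (0.0509 to 0.0698). That list summed to between 69.8 and 85.5 RPKM in shCTL and between 83.4 and 106 RPKM in shHSF1, nearly all of it CD68 (77.5 against 94 RPKM), a lysosomal protein that is not confined to macrophages. The part of these lists in the results was not tested.

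The promoters of these genes show what they share in sequence apart from expression. Promoter windows of 300 bases (250 before to 50 after the gene start) from RefSeq, build GRCh38.p14, were matched by symbol for 32 of the 39 genes, leaving out FOXM1, BUB3, TTK, BIRC5, AURKA, TPX2 and UBE2C. The CHR letters TTTGAA or TTTAAA, on either strand, stood in 29 of 32 windows (90.6%), against 24.3% of 27305 promoters of the same length. CCAAT on either strand stood in 25 of 32 (78.1% against 35.7%), and 23 of 32 held both (71.9% against 9.49%). The E2F letters TTCCCGCC, TTTCGCGC or TTTGGCGC stood in 4 of 32 (12.5% against 4.3%). The heat shock element letters GAANNTTC or TTCNNGAA stood in 5 of 32 (15.6% against 13.7%). The shares are descriptions of letters in a window, not of bound sites, and the genes were partly known for these elements. CHR stood in 18 of 19 windows of genes called higher in shHSF1, as described below, in 3 of 4 of genes called lower and in 8 of 9 of genes not called. CCAAT stood in 14 of 19, 4 of 4 and 7 of 9. The E2F letters stood in 2 of 19, 0 of 4 and 2 of 9. The heat shock element letters stood in 5 of 19, 0 of 4 and 0 of 9, where 13.7% of all promoters held them. These splits by call were not tested.

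The 250 bases before the start of PRC1 and KIF23, the genes with the largest rises, of MKI67, a large rise on another chromosome, and of BUB1 and CDCA8, which fell, are shown 5′ to 3′ along the gene, with CHR and CCAAT letters (either strand) in capitals. Adjoining capitals in MKI67 and CDCA8 are a CHR and a reversed CCAAT that share bases.
PRC1 (chr15:90994536-90994785, minus strand): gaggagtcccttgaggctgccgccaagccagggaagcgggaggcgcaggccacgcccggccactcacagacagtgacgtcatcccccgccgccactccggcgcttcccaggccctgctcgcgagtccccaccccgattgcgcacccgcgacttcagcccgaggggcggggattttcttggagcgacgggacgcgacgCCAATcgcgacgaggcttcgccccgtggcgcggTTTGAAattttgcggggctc
KIF23 (chr15:69414099-69414348, plus strand): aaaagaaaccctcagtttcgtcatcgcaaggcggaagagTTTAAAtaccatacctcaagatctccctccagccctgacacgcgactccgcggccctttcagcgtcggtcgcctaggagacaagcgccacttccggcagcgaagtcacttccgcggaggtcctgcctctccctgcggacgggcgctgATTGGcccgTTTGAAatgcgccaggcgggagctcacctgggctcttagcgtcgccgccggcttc
MKI67 (chr10:128126424-128126673, minus strand): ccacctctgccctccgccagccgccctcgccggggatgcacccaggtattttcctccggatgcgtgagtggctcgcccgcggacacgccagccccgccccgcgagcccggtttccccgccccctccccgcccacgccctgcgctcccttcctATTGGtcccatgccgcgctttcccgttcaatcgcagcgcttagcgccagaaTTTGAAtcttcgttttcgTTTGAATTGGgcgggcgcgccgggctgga
BUB1 (chr2:110678064-110678313, minus strand): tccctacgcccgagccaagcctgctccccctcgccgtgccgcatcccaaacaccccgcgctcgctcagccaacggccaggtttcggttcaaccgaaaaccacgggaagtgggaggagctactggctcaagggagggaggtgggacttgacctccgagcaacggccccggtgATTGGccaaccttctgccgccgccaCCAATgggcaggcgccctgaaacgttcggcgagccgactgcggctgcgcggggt
CDCA8 (chr1:37692266-37692515, plus strand): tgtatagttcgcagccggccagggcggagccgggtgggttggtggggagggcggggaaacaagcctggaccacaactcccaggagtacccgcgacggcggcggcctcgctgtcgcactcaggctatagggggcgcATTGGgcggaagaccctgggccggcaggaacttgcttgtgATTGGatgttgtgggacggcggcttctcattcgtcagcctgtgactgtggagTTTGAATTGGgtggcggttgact

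**Figure D1:**
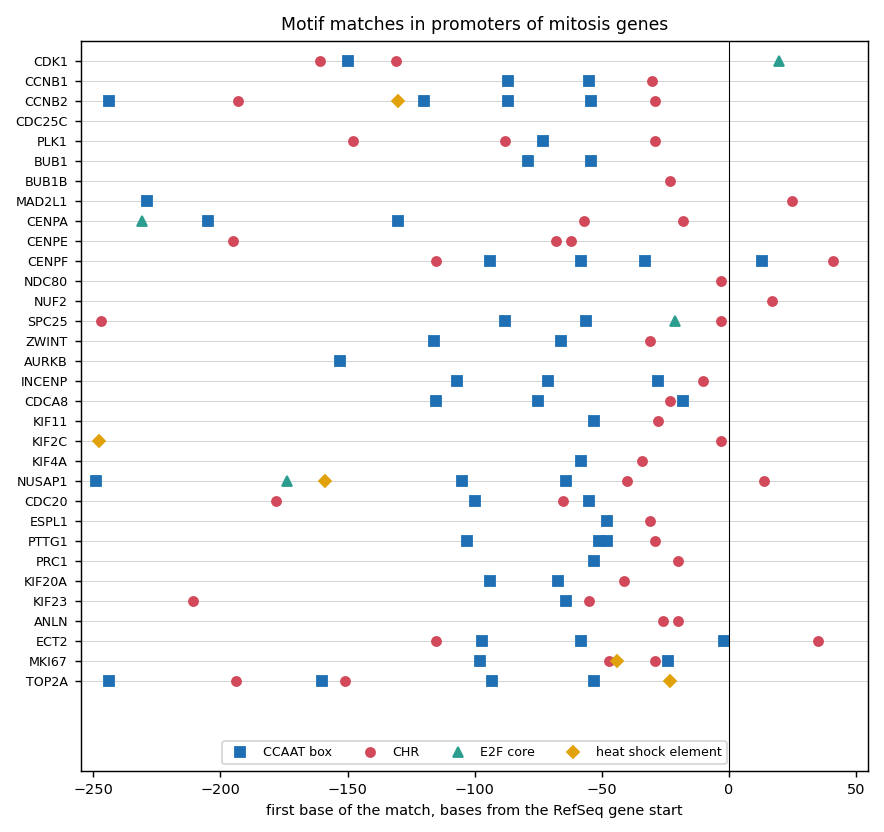
First base of each motif match in the promoter windows of 32 mitosis genes, in bases from the RefSeq gene start (x axis), with 1 gene per line. CCAAT boxes and CHR letters lie in most windows, CDC25C has no match, and heat shock elements appear in 5 of 32 windows.

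In PRC1 the CCAAT began at -53 and the CHR at -20, and in CCNB1 CCAAT began at -87 and -55 and the CHR at -30. In BUB1 both CCAAT matches (-79 and -54) came without a CHR in the window. In these windows AURKB had 1 CCAAT at -153 and no CHR, and CDC25C had none of the 4 motifs. RefSeq gene starts differed from the starts of the RPKM gene spans for some genes. The AURKB window (chromosome 17, 8210176 to 8210475) lay inside the gene's span, which starts at 8210626 on the minus strand. That of KIF20A (chromosome 5, 138178862 to 138179161) also lay inside its span. Bases before those outer starts were not searched, so a missing match describes the window and not the gene.

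More of the mitosis genes rose than fell when HSF1 was lowered. In limma over 12433 expressed genes on log2(RPKM + 0.5), a scale on which changes of low genes are understated, 24 of 39 genes were higher in shHSF1 at an adjusted p under 0.05, 4 were lower and 11 did not pass. Of all tested genes 17.7% were called higher and 16.1% lower, against 61.5% and 10.3% of the mitosis genes. The median log2 fold change was 0.32 over the mitosis genes and 0.04 over all tested genes. The libraries of the groups did not overlap for 25 mitosis genes that were higher and 4 that were lower, where 25.6% and 21.8% of all tested genes did not overlap. Most rises were small: 17 of 24 were under 1.5-fold, 7 were at least 1.5-fold, and PRC1 and KIF23 alone passed a log2 fold change of 1.

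Replicate numbers were taken to pair the libraries from correlations in these data, which no label states. The main fit, by group only, does not use this pairing. In the fit blocked by replicate number, 26 mitosis genes were called higher and 4 lower (26.2% and 22.1% of all tested genes). Without shCTL 2, shCTL 3 or shHSF1 1 the count of higher genes was 15 in each case, where 14.2%, 11.3% and 12.9% of all tested genes were called higher, against 17.7% with all libraries. The count of lower genes was 1 without shCTL 1, shCTL 3 or shHSF1 2 (15.5%, 11.3% and 12.3% of all tested genes), and 2 without shHSF1 1 (12.7%). All 39 passed the filter of 0.5 RPKM in at least 3 libraries. Their levels were high: the median over the genes was 65.7 RPKM, above 92.2% of tested genes, and the range ran from 1.23 RPKM for SPC25 to 200.2 RPKM for TPX2.

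**Figure D2:**
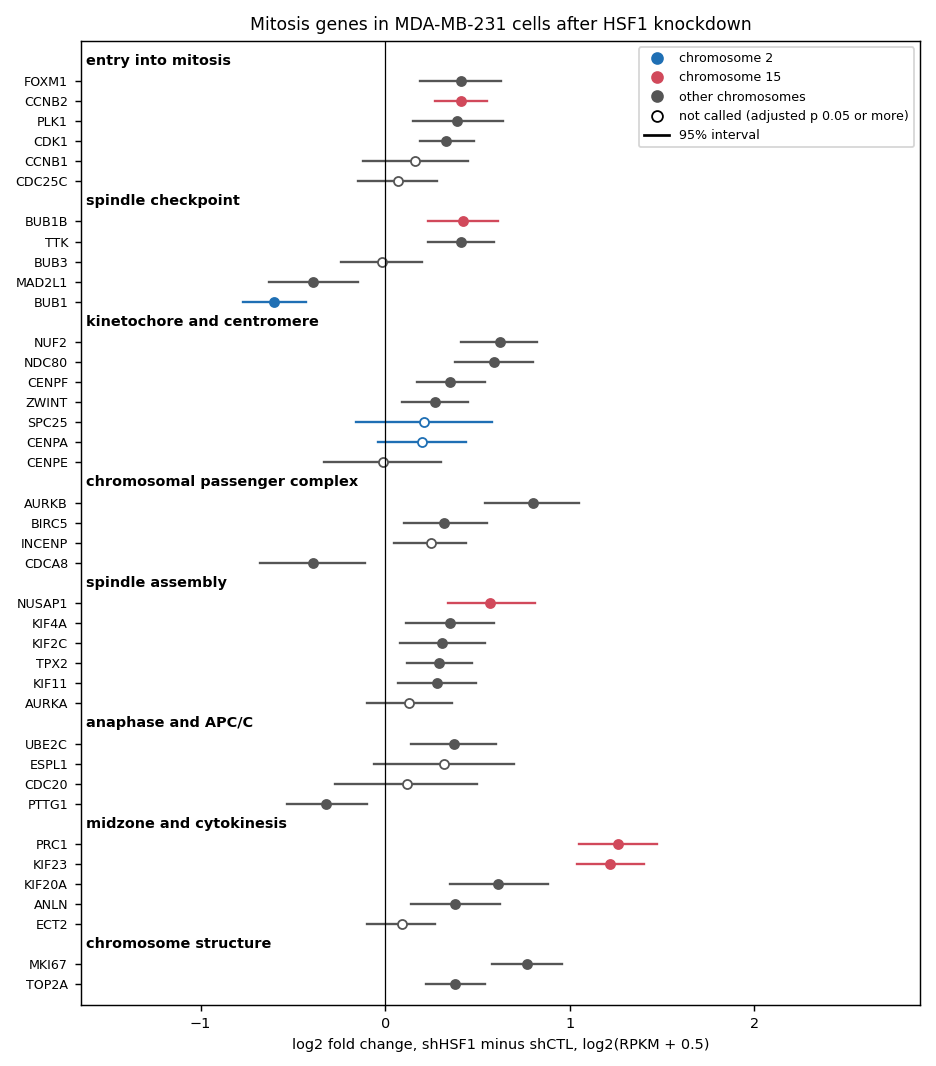
Log2 fold change of each of the 39 genes, shHSF1 minus shCTL (x axis, log2(RPKM + 0.5)), with its 95% interval from limma, grouped by role. Filled points passed an adjusted p of 0.05, open points did not, and colour marks chromosomes 2 and 15; PRC1 and KIF23 lie beyond 1, and the lowest value is that of BUB1 at -0.60.

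**Figure D3:**
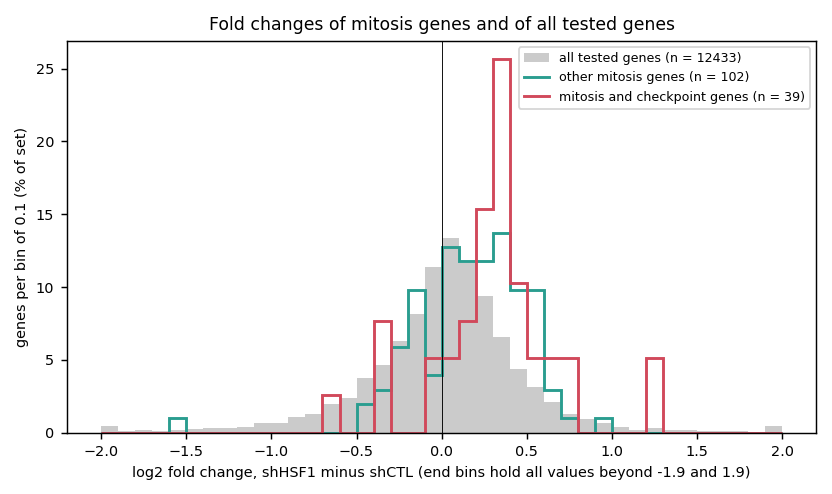
Share of genes (y axis, % of each set) by log2 fold change in bins of 0.1 (x axis), for 12433 tested genes, the 39 mitosis and checkpoint genes and 102 other tested mitosis genes. The medians are 0.04, 0.32 and 0.20.

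Among genes of mitotic entry, 4 of 6 rose and none fell. CDK1 (chromosome 10, 60778331 to 60794852, plus strand), the kinase that starts mitosis, was at 54.4, 52.3 and 54.9 RPKM in shCTL and 66.2, 68.4 and 69.1 RPKM in shHSF1. All 3 shHSF1 libraries lay above all 3 shCTL libraries, and the rise was 1.26-fold (log2 fold change 0.33, SE 0.0626, limma adjusted p = 0.00547). CCNB2 (chromosome 15, 59105085 to 59125045, plus strand), a B-type cyclin, was at 44.3, 43.5 and 44.7 RPKM in shCTL and 59.8, 59.1 and 58 RPKM in shHSF1, again without overlap, and rose 1.34-fold (log2 fold change 0.41, SE 0.0608, limma adjusted p = 0.00179). Its relative CCNB1 (chromosome 5, 69167010 to 69178243, plus strand), the main mitotic cyclin, was at 143, 115 and 119 RPKM in shCTL and 154, 150.0 and 119 RPKM in shHSF1. The shHSF1 3 value of CCNB1 lay within the shCTL range, and the difference stayed above the p threshold (log2 fold change 0.16, 95% interval -0.12 to 0.45, limma adjusted p = 0.357).

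FOXM1 (chromosome 12, 2857681 to 2877155, minus strand), the forkhead factor that activates G2 and M genes, was at 63.8, 51.1 and 58.3 RPKM in shCTL and 82, 73.9 and 73.7 RPKM in shHSF1 and rose 1.33-fold (log2 fold change 0.41, SE 0.0960, limma adjusted p = 0.014). PLK1 (chromosome 16, 23678772 to 23690367, plus strand), a kinase of centrosome maturation and mitotic entry, was at 61.2, 46.3 and 53.4 RPKM in shCTL and 73.4, 68.4 and 68.8 RPKM in shHSF1 and rose 1.31-fold (log2 fold change 0.39, SE 0.105, limma adjusted p = 0.023). Neither gene had overlapping groups. The FOXM1 call was lost without shHSF1 1 (adjusted p = 0.0501), and that of PLK1 without shCTL 2, shCTL 3, shHSF1 1 or shHSF1 2 (adjusted p from 0.053 to 0.0732). CDC25C, the phosphatase that activates CDK1, was between 10.2 and 12.3 RPKM in all 6 libraries and did not pass (limma adjusted p = 0.633). Exons of FOXM1 share 450 bases with ITFG2 on the opposite strand. Those of CDC25C share 293 bases with FAM53C, also on the opposite strand and at a mean of 18.1 RPKM. Reads in the shared bases may be left uncounted or given to the wrong gene if counting ignored strand.

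The spindle checkpoint genes split. BUB1B and TTK rose, BUB1 and MAD2L1 fell, and BUB3 did not pass. BUB1 (chromosome 2, 110637698 to 110678107, minus strand), the kinase that recruits other checkpoint proteins to kinetochores, was at 122, 106 and 114 RPKM in shCTL and 76, 72.4 and 76.5 RPKM in shHSF1. Each shHSF1 library lay below each shCTL library, and BUB1 fell 1.52-fold, from 114 ± 7.72 to 74.9 ± 2.19 RPKM (means ± SD of 3 libraries, log2 fold change -0.60, SE 0.0739, limma adjusted p = 0.00082). BUB1B (chromosome 15, 40161009 to 40221136, plus strand), whose product BUBR1 is a part of the mitotic checkpoint complex, was at 32.4, 29.1 and 31.6 RPKM in shCTL and 41.1, 38.7 and 45.1 RPKM in shHSF1. It rose 1.34-fold, without overlap (log2 fold change 0.42, SE 0.0825, limma adjusted p = 0.00674). The ratio of BUB1 to BUB1B, both in RPKM, was 3.76, 3.66 and 3.62 in shCTL and 1.85, 1.87 and 1.70 in shHSF1, a mean of 3.68 ± 0.0743 against 1.81 ± 0.0953 (SD, n = 3). BUB1 was thus the more abundant of the pair in all 6 libraries, with less of a lead in shHSF1.

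TTK (chromosome 6, 80004605 to 80042527, plus strand), the kinase MPS1 at the head of the checkpoint, was at 28.2, 26 and 29.2 RPKM in shCTL and 35, 37.6 and 38.6 RPKM in shHSF1 and rose 1.34-fold (log2 fold change 0.41, SE 0.0767, limma adjusted p = 0.00519). MAD2L1 (chromosome 4, 120059424 to 120066858, minus strand), the CDC20-binding checkpoint protein, was at 86.1, 70.3 and 85.1 RPKM in shCTL and 56.5, 59.9 and 67.3 RPKM in shHSF1. The highest shHSF1 value lay below the lowest shCTL value, and MAD2L1 fell 1.31-fold (log2 fold change -0.39, SE 0.104, limma adjusted p = 0.0237). That call was lost without shCTL 1, shCTL 3, shHSF1 1 or shHSF1 2 (adjusted p from 0.0656 to 0.0895). BUB3 (chromosome 10, 123154244 to 123165370, plus strand), the partner of BUB1 and BUBR1, was at 168, 135 and 144 RPKM in shCTL and 151, 151 and 138 RPKM in shHSF1; the groups overlapped and it did not pass (log2 fold change -0.02, 95% interval -0.24 to 0.20, limma adjusted p = 0.903).

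**Figure D4:**
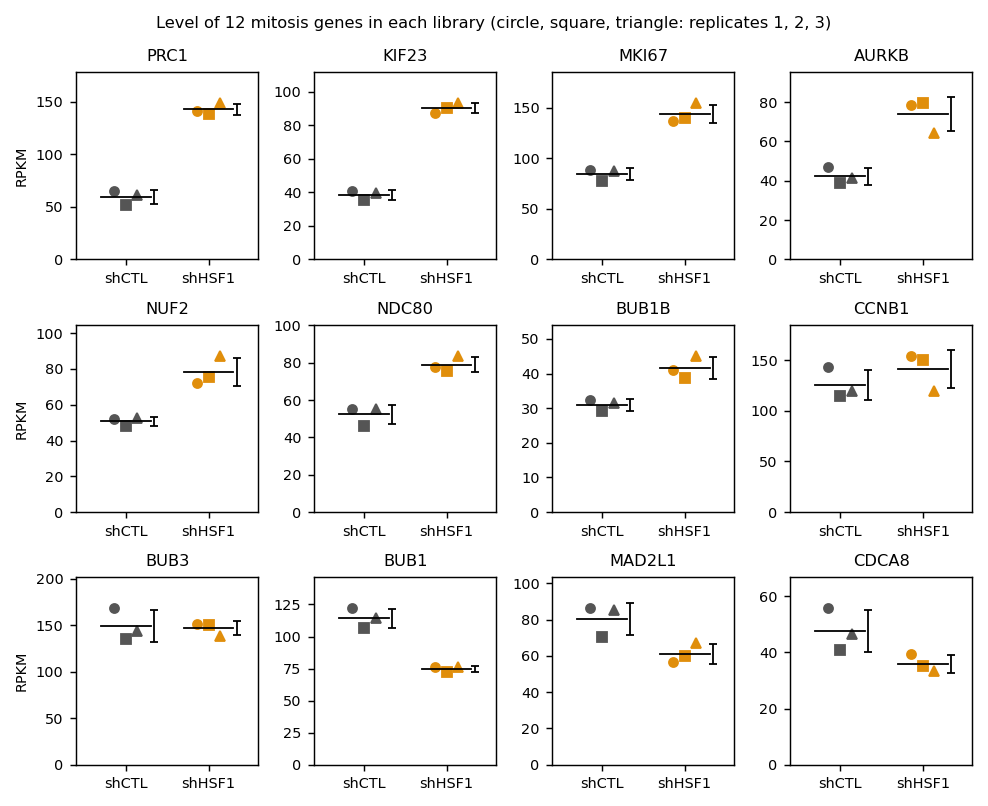
Level in RPKM (y axis, from 0) of 12 mitosis genes in each of the 6 libraries, with the group mean (line) and SD (bar, n = 3). PRC1 and KIF23 more than double, BUB1 falls from between 106 and 122 RPKM to between 72.4 and 76.5 RPKM, and the CCNB1 and BUB3 groups overlap.

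At the kinetochore, 4 of 7 genes rose and none fell. NDC80 (chromosome 18, 2571511 to 2616635, plus strand), the microtubule-binding subunit of the complex named after it, was at 55.3, 46.3 and 55.4 RPKM in shCTL and 77.8, 75.5 and 83.7 RPKM in shHSF1 and rose 1.51-fold (log2 fold change 0.59, SE 0.0905, limma adjusted p = 0.00213). NUF2 (chromosome 1, 163321933 to 163355763, plus strand), its direct partner, was at 52, 47.9 and 52.4 RPKM in shCTL and 72.3, 75.5 and 87.3 RPKM in shHSF1 and rose 1.54-fold (log2 fold change 0.62, SE 0.0886, limma adjusted p = 0.00156). The partners moved together, with a NUF2 to NDC80 ratio in RPKM of 0.974 ± 0.0519 in shCTL and 0.991 ± 0.0576 in shHSF1 (SD, n = 3). SPC25 (chromosome 2, 168870891 to 168890434, minus strand), a subunit of the same complex, was listed at only 1.23, 0.826 and 1.27 RPKM in shCTL and 1.16, 1.27 and 1.65 RPKM in shHSF1. Its exons are listed a second time on an alternate contig of chromosome 2, and the part of that in its low level was not tested. It did not reach the threshold (log2 fold change 0.21, 95% interval -0.16 to 0.58, limma adjusted p = 0.354).

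CENPF (chromosome 1, 214603189 to 214664571, plus strand), a large kinetochore protein of G2 and M, was at 70.6, 63.6 and 70.1 RPKM in shCTL and 81.5, 86.4 and 93.6 RPKM in shHSF1 and rose 1.28-fold (log2 fold change 0.35, SE 0.0802, limma adjusted p = 0.0121). ZWINT (chromosome 10, 56357438 to 56361273, minus strand), which links the outer kinetochore to the checkpoint, was at 74.7, 63.6 and 71.5 RPKM in shCTL and 85.4, 84.1 and 82.6 RPKM in shHSF1 and was called 1.2-fold higher (log2 fold change 0.27, SE 0.0778, limma adjusted p = 0.0324). The ZWINT call was lost without shCTL 2, shCTL 3, shHSF1 1 or shHSF1 2 (adjusted p from 0.0852 to 0.0985) and in limma-voom on recovered reads (0.0685). CENPA (chromosome 2, 26786014 to 26794587, plus strand), the histone variant that marks centromeres, was at 27.6, 23.6 and 24.9 RPKM in shCTL and 30.6, 31.8 and 25.5 RPKM in shHSF1. It did not pass (log2 fold change 0.20, limma adjusted p = 0.179), but passed without shHSF1 3 (adjusted p = 0.0357), the library in which it was lowest of its group. CENPE, a kinetochore motor, was between 27.7 and 37.9 RPKM over the 6 libraries and did not pass (limma adjusted p = 0.949).

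The 4 genes of the chromosomal passenger complex, which corrects faulty attachments, went different ways. AURKB (chromosome 17, 8204731 to 8210626, minus strand), its kinase, was at 47.1, 38.7 and 41.2 RPKM in shCTL and 78.7, 79.4 and 64.1 RPKM in shHSF1. No library overlapped, and AURKB rose 1.75-fold (log2 fold change 0.80, SE 0.111, limma adjusted p = 0.00137). BIRC5 (chromosome 17, 78214196 to 78225635, plus strand), which encodes survivin, was at 51.7, 41.3 and 46.2 RPKM in shCTL and 59.8, 60.7 and 53.6 RPKM in shHSF1 and was called 1.25-fold higher (log2 fold change 0.32, SE 0.0975, limma adjusted p = 0.0365). CDCA8 (chromosome 1, 37692401 to 37709719, plus strand), which encodes borealin, was at 55.6, 40.8 and 46.6 RPKM in shCTL and 39.5, 35.1 and 33.2 RPKM in shHSF1; the groups did not overlap, and it fell 1.33-fold (log2 fold change -0.39, SE 0.122, limma adjusted p = 0.0395). INCENP, the scaffold, was between 22.1 and 25.3 RPKM in shCTL and between 26.3 and 29.6 RPKM in shHSF1. It did not pass (limma adjusted p = 0.0555) and passed with the replicate block (adjusted p = 0.00962). The ratio of CDCA8 to AURKB in RPKM went from 1.12 ± 0.0629 to 0.488 ± 0.0406 and that of BIRC5 to AURKB from 1.10 ± 0.0266 to 0.787 ± 0.0435 (SD, n = 3). The BIRC5 call was lost without shCTL 2, shCTL 3, shHSF1 1 or shHSF1 2 (adjusted p from 0.102 to 0.122), and the CDCA8 call without shCTL 1, shCTL 3, shHSF1 2 or shHSF1 3 (from 0.0876 to 0.111).

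Of 6 spindle assembly genes 5 rose. NUSAP1 (chromosome 15, 41332694 to 41381050, plus strand), a microtubule-bundling protein near chromosomes, was at 89.8, 76.8 and 90.2 RPKM in shCTL and 117, 123 and 143 RPKM in shHSF1 and rose 1.49-fold (log2 fold change 0.57, SE 0.101, limma adjusted p = 0.00415). TPX2 (chromosome 20, 31739101 to 31801800, plus strand), the activator of Aurora A and the most abundant of the 39 transcripts per length, was at 184, 169.9 and 186 RPKM in shCTL and 218, 211 and 233 RPKM in shHSF1 and rose 1.22-fold (log2 fold change 0.29, SE 0.0750, limma adjusted p = 0.0199). AURKA (chromosome 20, 56369389 to 56392337, minus strand), the kinase it activates, was at 105, 83.9 and 97.1 RPKM in shCTL and 109, 106 and 97.2 RPKM in shHSF1. The groups overlapped and AURKA was not called (log2 fold change 0.13, 95% interval -0.10 to 0.36, limma adjusted p = 0.347).

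The kinesins of this role had small rises. KIF4A (chromosome X, 70290029 to 70420924, plus strand), a chromokinesin, was at 44.8, 34 and 41.1 RPKM in shCTL and 52, 49 and 51.1 RPKM in shHSF1 and was called 1.27-fold higher (limma adjusted p = 0.0353). KIF2C (chromosome 1, 44739818 to 44767766, plus strand), a microtubule depolymerase, was at 66.6, 53.4 and 57 RPKM in shCTL and 77.2, 75 and 66.7 RPKM in shHSF1 and was called 1.24-fold higher (limma adjusted p = 0.0479). KIF11 (chromosome 10, 92593068 to 92655395, plus strand), the motor Eg5 that pushes spindle poles apart, was at 59.8, 51.9 and 60.5 RPKM in shCTL and 64.8, 68.7 and 75.9 RPKM in shHSF1 and was called 1.22-fold higher (limma adjusted p = 0.0477). None of the 3 had overlapping groups, but the calls were near the threshold. KIF11 lost its call whichever of the 6 libraries was left out (adjusted p from 0.0521 to 0.135), KIF4A without any library but shCTL 1 (0.0615 to 0.0957), KIF2C without shCTL 2, shCTL 3, shHSF1 1 or shHSF1 2 (0.136 to 0.141) and TPX2 without shCTL 2, shCTL 3 or shHSF1 1 (0.0534 to 0.062). In limma-voom on recovered reads, KIF11 (adjusted p = 0.0807), KIF2C (0.0645) and KIF4A (0.0511) did not pass.

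Genes of anaphase onset showed 1 rise and 1 fall. UBE2C (chromosome 20, 45812576 to 45816957, plus strand), the ubiquitin-conjugating enzyme of APC/C, was at 110.2, 97.5 and 101 RPKM in shCTL and 142, 142 and 117 RPKM in shHSF1 and rose 1.3-fold without overlap (log2 fold change 0.37, SE 0.0982, limma adjusted p = 0.0228). PTTG1 (chromosome 5, 160421807 to 160428744, plus strand), which encodes securin, the inhibitor of separase, was at 165, 138 and 156 RPKM in shCTL and 125, 113 and 129 RPKM in shHSF1 and fell 1.25-fold without overlap (log2 fold change -0.32, SE 0.0924, limma adjusted p = 0.0314). CDC20 (chromosome 1, 43358955 to 43363202, plus strand) was at 184, 142 and 144 RPKM in shCTL and 196, 184 and 132 RPKM in shHSF1. The highest and the lowest CDC20 values were both in shHSF1, and the test was not passed (log2 fold change 0.12, 95% interval -0.27 to 0.50, limma adjusted p = 0.635). ESPL1, which encodes separase, was between 5.27 and 6.74 RPKM in shCTL and between 5.86 and 8.93 RPKM in shHSF1. It did not pass (limma adjusted p = 0.176), and it passed with the replicate block (adjusted p = 0.0288) and without shHSF1 3 (0.0183). The UBE2C call was lost without shCTL 2, shCTL 3, shHSF1 1 or shHSF1 2 (0.0719 to 0.0863) and the PTTG1 call without shCTL 1, shCTL 3, shHSF1 1 or shHSF1 2 (0.0664 to 0.117).

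The largest rises were those of PRC1 and KIF23. They lie on a part of chromosome 15 where the genes near them had median log2 fold changes of 0.69 and 0.60, as described below. Both act at the spindle midzone, which is built by PRC1, an antiparallel microtubule crosslinker, and by the kinesins it works with. PRC1 (chromosome 15, 90966038 to 90994651, minus strand) was at 64.7, 52.3 and 61.4 RPKM in shCTL and 142, 139 and 149 RPKM in shHSF1. The lowest shHSF1 value was over 2 times the highest shCTL value, and PRC1 rose 2.4-fold, from 59.5 ± 6.43 to 143 ± 5.13 RPKM (means ± SD of 3 libraries, log2 fold change 1.26, SE 0.0912, limma adjusted p = 7.43e-05). KIF23 (chromosome 15, 69414246 to 69448427, plus strand), a kinesin of the centralspindlin complex, was at 40.8, 35.2 and 39.4 RPKM in shCTL and 87.3, 90.1 and 93.1 RPKM in shHSF1 and rose 2.35-fold, from 38.5 ± 2.91 to 90.2 ± 2.88 RPKM (means ± SD of 3 libraries, log2 fold change 1.22, SE 0.0771, limma adjusted p = 4.23e-05). Its ratio to PRC1 in RPKM was 0.648 ± 0.0221 in shCTL and 0.631 ± 0.0168 in shHSF1 (SD, n = 3), so the pair rose to a like extent. PRC1 shares 337 exon bases with the antisense gene PRC1-AS1, which was at a mean of 0.343 RPKM, and KIF23 shares 231 with LOC145694 on the opposite strand, at 0.600 RPKM.

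KIF20A (chromosome 5, 138178728 to 138187715, plus strand), the midzone kinesin that carries the passenger complex, was at 44.5, 32.4 and 39.4 RPKM in shCTL and 61.2, 57.6 and 58.7 RPKM in shHSF1 and rose 1.53-fold (log2 fold change 0.61, SE 0.113, limma adjusted p = 0.00492). It shares 68 exon bases with CDC23 on the opposite strand, an APC/C subunit that was also called higher (22.6 against 28.4 RPKM, limma adjusted p = 0.0183). ANLN (chromosome 7, 36389803 to 36453791, plus strand), the anillin scaffold of the contractile ring, was at 110.5, 93 and 107 RPKM in shCTL and 128, 126 and 152 RPKM in shHSF1 and was called 1.31-fold higher (log2 fold change 0.38, SE 0.103, limma adjusted p = 0.0243), a call lost without shCTL 2 (adjusted p = 0.0727) or shCTL 3 (0.0566). ECT2, the exchange factor that activates RhoA at the cleavage site, was between 78.8 and 79.3 RPKM in shCTL, where the 3 libraries nearly coincided. In shHSF1 it was between 76.2 and 90.5 RPKM, and it was not called (limma adjusted p = 0.443).

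Both genes of chromosome structure rose. MKI67 (chromosome 10, 128096661 to 128126204, minus strand), which encodes the proliferation marker Ki-67 that coats mitotic chromosomes, was at 88.1, 77.4 and 86.9 RPKM in shCTL and 137, 139.7 and 154 RPKM in shHSF1. It rose 1.71-fold, from 84.1 ± 5.87 to 144 ± 9.27 RPKM (means ± SD of 3 libraries, log2 fold change 0.77, SE 0.0824, limma adjusted p = 0.000442), and the groups were far apart. TOP2A (chromosome 17, 40388521 to 40417950, minus strand), the topoisomerase that untangles sister chromatids, was at 167, 154 and 166 RPKM in shCTL and 208, 209 and 218 RPKM in shHSF1 and rose 1.3-fold (log2 fold change 0.38, SE 0.0691, limma adjusted p = 0.00454).

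Of the 28 called genes, 13 of those higher and 1 of those lower kept their call in each of 16 alternatives. The same count was not made over all tested genes, so whether these numbers are unusual is not known. The genes that kept their call were CCNB2, BUB1B, TTK, CENPF, NDC80, NUF2, AURKB, NUSAP1, PRC1, KIF20A, KIF23, MKI67 and TOP2A upward, and BUB1 downward.

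All 5 on chromosome 15 rose, with a median log2 fold change of 0.57, and of the 3 on chromosome 2, 1 fell and none rose, with a median of 0.20 (BUB1 -0.60, CENPA 0.20 and SPC25 0.21). On the other chromosomes 19 of 31 rose and 3 fell, with a median of 0.32. The tested genes of chromosome 15 as a whole had a median of 0.41 over 394 genes, with 53.0% called higher and 6.85% lower. Those of chromosome 2 had a median of -0.21 over 851 genes, with 9.4% called higher and 39.2% lower. On all other chromosomes the median was 0.05, with 17.0% called higher and 14.7% lower. The chromosomes were picked with these results known, so no test was made between them.

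Within these chromosomes the neighbours of each gene, taken as the 40 nearest tested genes outside the list, differed by position. On chromosome 15 the neighbours of BUB1B, NUSAP1 and CCNB2 had median log2 fold changes of 0.12, 0.05 and 0.12, while those of KIF23 and PRC1, farther along the long arm, had 0.60 and 0.69. KIF23 and PRC1 exceeded their neighbours by 0.62 and 0.57 on the log2 scale, and NUSAP1, CCNB2 and BUB1B by 0.52, 0.29 and 0.30. On other chromosomes AURKB (0.82), SPC25 (0.73), MKI67 (0.71) and NUF2 (0.64) exceeded theirs by more, so KIF23 and PRC1 did not lead on this measure. With each gene's difference centred on that of its neighbours, all 5 on chromosome 15 kept their limma calls (adjusted p from 0.00114 for KIF23 to 0.0323 for BUB1B). On chromosome 2 the neighbours of CENPA had a median of 0.06, those of BUB1 had -0.35, and those of SPC25 had -0.52. BUB1 differed by -0.25 from its neighbours, and its call remained after centring (adjusted p = 0.0425). Centring subtracts the neighbours' median as a fixed value, so the centred p-values leave out the uncertainty of that median. The farthest of the 40 neighbours lay 5.59 Mb from BUB1, and over the mitosis genes between 0.698 Mb (INCENP) and 10.5 Mb (ZWINT) away. SPC25 lay 0.73 above its neighbours and passed only after centring (adjusted p = 0.0119).

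Of the 4 genes that fell, 3 had neighbours with a median of -0.35 or lower. The neighbours of MAD2L1 on chromosome 4 had a median of -0.39, equal to its own log2 fold change, and its call was lost after centring (adjusted p = 0.99). Those of PTTG1 on chromosome 5 had a median of -0.45, and its centred difference was 0.13 (adjusted p = 0.342). CDCA8 on chromosome 1 was different: its neighbours had a median of 0.23, and its call remained after centring (adjusted p = 0.00807). Of 5 mitosis genes whose neighbours had a median under -0.3, 3 fell and none rose. Of 31 with a median between -0.3 and 0.3, 21 rose and 1 fell. All 3 above 0.3 (BIRC5, PRC1 and KIF23) rose. The same split was not made over all tested genes, so whether mitosis genes differ from others in such regions is not known. After centring over all tested genes, 18 of the 39 were called higher and 2 lower, beside 12.7% and 14.5% of all tested genes. The calls lost among the higher genes were those of CDK1 (adjusted p = 0.109), PLK1 (0.0589), ZWINT (0.435), BIRC5 (0.937), TPX2 (0.183), KIF11 (0.0851), KIF2C (0.395) and ANLN (0.0953). CENPE, whose neighbours had a median of -0.51, lay 0.49 above them and passed after centring (adjusted p = 0.0315).

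**Figure D5:**
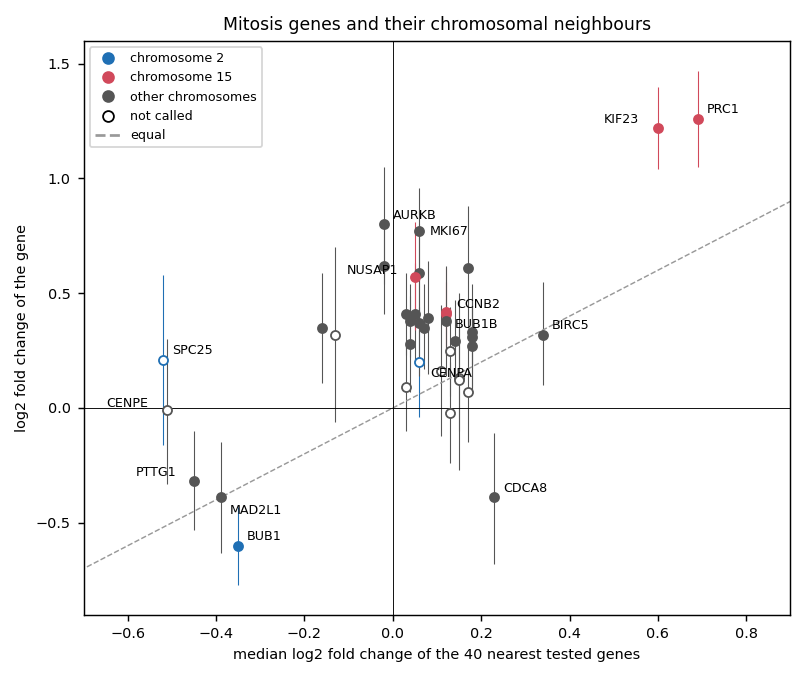
Log2 fold change of each mitosis gene with its 95% interval (y axis) against the median log2 fold change of its 40 nearest tested genes (x axis); the dashed line marks equal values. KIF23 and PRC1 lie at the upper right and above the line, BUB1, MAD2L1 and PTTG1 at the lower left, and CDCA8 below the line on the right.

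The mitosis genes also varied together among libraries of the same group. In shCTL 2, 38 of the 39 genes had their lowest shCTL value, and in shCTL 1, 28 had their highest. The median deviation from the shCTL mean, on the log2 scale, was -0.130 in shCTL 2, 0.098 in shCTL 1 and 0.031 in shCTL 3, while over all tested genes these medians were 0.022, -0.021 and -0.001. In shHSF1 the medians for the mitosis genes were 0.019, -0.021 and 0.029, and no library held the lowest value of more than 15 of them. Without shCTL 2 the median log2 fold change of the 39 genes was 0.25 in place of 0.32, and without shCTL 1 it was 0.38. Within the numbered pairs, 28 of 39 genes were higher in shHSF1 in 3 of 3 pairs and 4 were lower in 3 of 3, beside 38.7% and 31.2% of all tested genes.

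Other genes of mitosis were taken from lists drawn up by function. Of 103 listed genes 102 were tested; 34 (33.3%) were higher in shHSF1, 7 (6.86%) were lower and 61 did not pass, with a median log2 fold change of 0.20. Over all tested genes 17.7% were higher and 16.1% lower, with a median of 0.04. Levels below are means ± SD of 3 libraries per group. SKA1 was under the filter, with 0 reads in shCTL and 1 in shHSF1. Its exons are listed a second time on an alternate contig, and the part of that in its low level was not tested. Calls lost with 1 library left out, among those named, were CENPC (without shCTL 3, adjusted p = 0.0532), ANAPC4 (without shCTL 3, 0.0545), FBXO5 (without shHSF1 2, 0.0563), NCAPH (without shCTL 3 or shHSF1 1, 0.0576 and 0.0525), CDC23 (without shCTL 2, shCTL 3 or shHSF1 1, 0.0552 to 0.0674) and CKS2 (without any library but shCTL 2, 0.0508 to 0.104). After centring on neighbours, CENPC (adjusted p = 0.968), ZW10 (0.87), PDS5A (0.308), ANAPC1 (0.38), ANAPC4 (0.641), TFDP1 (0.524), CDC23 (0.202) and NCAPH (0.0528) did not pass.

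Among the regulators of entry and of the DREAM and MuvB complexes, 7 of 19 rose (36.8%) and none fell. RBL1, the pocket protein p107 of DREAM, went from 11.6 ± 0.637 to 19.6 ± 1.4 RPKM (log2 fold change 0.74, limma adjusted p = 0.000612). TFDP1, the partner of E2F factors, went from 67.8 ± 8.57 to 109.8 ± 10.7 RPKM (limma adjusted p = 0.00274), on a part of chromosome 13 whose genes near it had a median of 0.59. MYBL2, which encodes B-MYB, went from 19.4 ± 1.33 to 29.3 ± 0.843 RPKM (limma adjusted p = 0.00106). CCNA2, the cyclin A gene, which did not pass, was at 72.6 against 64.6 RPKM (limma adjusted p = 0.248).

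In the list of other spindle and cytokinesis genes 11 of 23 rose (47.8%) and 2 fell (8.7%). CEP55, an abscission protein, rose from 82.4 ± 5.13 to 130.4 ± 17.1 RPKM (limma adjusted p = 0.00258), GTSE1 from 35.5 ± 3.93 to 53.8 ± 5.07 RPKM (limma adjusted p = 0.00414) and KIF18B, a kinesin, from 14.6 ± 1.01 to 22 ± 2.29 RPKM (limma adjusted p = 0.00367). HMMR, a spindle and hyaluronan-binding protein, had the largest change of the pathway lists. It was at 9.46, 8.08 and 9.52 RPKM in shCTL and 2.29, 3.17 and 3.15 RPKM in shHSF1 and fell 3.14-fold (log2 fold change -1.51, limma adjusted p = 0.000198), on a part of chromosome 5 whose genes near it had a median of -0.34. CKS2, a CDK-binding subunit, was called lower (from 157 ± 9.47 to 131 ± 3.29 RPKM, limma adjusted p = 0.0267).

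Of 24 other tested kinetochore and checkpoint genes 6 rose (25.0%) and 2 fell (8.33%), with a median log2 fold change of 0.08, shares and a median not far from the 17.7%, 16.1% and 0.04 of all tested genes. ZWILCH, a subunit of the complex that brings dynein to kinetochores, rose from 26.1 ± 1.03 to 50.1 ± 0.94 RPKM (limma adjusted p = 6.99e-05) on chromosome 15, where its neighbours had a median of 0.60. TRIP13, the ATPase that recycles MAD2, rose from 9.6 ± 1.42 to 14.8 ± 1.52 RPKM (limma adjusted p = 0.00785), and KNL1, the scaffold that binds BUB1, BUBR1 and the NDC80 network, from 18.3 ± 1.46 to 27 ± 1.98 RPKM (limma adjusted p = 0.00293). CENPC fell (from 12.9 ± 0.547 to 9.61 ± 0.836 RPKM, limma adjusted p = 0.0103), as did ZW10, which acts in the same complex as ZWILCH (from 29 ± 0.745 to 23 ± 0.356 RPKM, limma adjusted p = 0.0068).

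Of 20 condensin and cohesin genes 6 rose (30.0%) and 1 fell (5.0%). NCAPD2, a condensin I subunit, went from 47.7 ± 4.4 to 69.9 ± 6.32 RPKM (limma adjusted p = 0.0044), SMC3, a cohesin core subunit, from 70.3 ± 5.1 to 102 ± 16.7 RPKM (limma adjusted p = 0.0119), and SGO1, which protects centromeric cohesin, from 12.2 ± 0.505 to 17 ± 1.66 RPKM (limma adjusted p = 0.00688). PDS5A, a cohesin regulator on chromosome 4, fell (from 44.7 ± 1.46 to 35 ± 1.35 RPKM, limma adjusted p = 0.00599). Of 16 APC/C subunits and inhibitors 4 rose (25.0%) and 2 fell (12.5%), near the 17.7% and 16.1% of all tested genes. ANAPC15 (from 4.66 ± 0.174 to 6.74 ± 0.457 RPKM, limma adjusted p = 0.00518), FBXO5, the inhibitor EMI1 (from 20.0 ± 2.73 to 27.4 ± 2.59 RPKM, limma adjusted p = 0.0213), and CDC23 rose, and the platform subunits ANAPC1 on chromosome 2 (from 16.7 ± 1.54 to 12.3 ± 0.804 RPKM, limma adjusted p = 0.00994) and ANAPC4 on chromosome 4 (from 18.4 ± 0.424 to 14.4 ± 1.05 RPKM, limma adjusted p = 0.0131) fell.

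Of 4 pathway genes on chromosome 2, NCAPH rose (log2 fold change 0.36), with neighbours at a median of 0.09, and ANAPC1 fell (-0.43), with neighbours at -0.31. SGO2 (-0.29, limma adjusted p = 0.0555) and HJURP (-0.13, 0.195) did not pass, with neighbours at -0.51 and -0.32. In 3 of the 4 genes shHSF1 lay lower without overlap, beside 47.5% of tested genes on chromosome 2. Of 3 on chromosome 15, ZWILCH (0.93) and KNL1 (0.55) rose, and ARPP19 did not pass (-0.11). With neighbours at 0.17, ARPP19 passed as lower after centring (limma adjusted p = 0.0373).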

How the data were processed

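RNA of 6 MDA-MB-231 libraries, grouped by title, was analysed from RPKM values that the authors deposited for 28058 genes. Per the submitters' processing notes STAR, featureCounts and hg38 were used; the sources used here give no version, annotation or strand setting. Values times length in kb summed to 1000000 per column, and 100% were whole multiples of 1 read within 0.01, which gave the reads per library. Control columns are named shScr and were taken as shCTL. The 12433 genes that reached 0.5 RPKM in 3 or more libraries entered limma 3.58.1 (R 4.3.3, group only, mean-variance trend, two-sided, Benjamini-Hochberg over all of them) on log2(RPKM + 0.5). The steps were tested on simulated data. Folds are ratios of mean RPKM. Deviations from group means correlated at 0.468, 0.307 and 0.451 within equal numbers and between -0.37 and -0.02 otherwise, so replicate numbers were taken to pair the libraries. No label states this pairing. Deviations from a group mean cancel within the group, so positive values within equal numbers partly force negative ones otherwise. The genes, lists and chromosomes were chosen with earlier results of these data known. Values per library are given for called genes, genes on chromosomes 2 and 15 and the most abundant of each role. From each pathway list up to 3 genes per direction with the largest change are named. NCAPH, CCNA2, ARPP19, SGO2 and HJURP were added after their values were seen. Alternatives were the block, each library left out, pseudocounts of 0.1 and 1, no filter or a mean of 1 RPKM, median and quantile scaling, no trend, limma-voom on recovered reads, and centring on 40 neighbouring genes. Figures used matplotlib 3.10.9.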

Additional observations from a re-analysis of the deposited data

How the results depend on the processing

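The lowered HSF1 was called in each of the 16 alternatives. The count of mitosis genes higher in shHSF1 was 24 and lay between 15 and 26; with one library left out it lay between 15 and 24. The count of lower ones was 4 and lay between 1 and 4 with one library left out; it was 1 with no filter on low values and 2 with centring on neighbouring genes. Of the other mitosis genes the higher count was 34 and lay between 26 and 38 with one library left out. Their lower count was 7, between 4 and 9 with one library left out, 11 with the replicate block and 4 with centring. Over all 12433 tested genes the higher count was 2195, between 1383 and 2374 with one library left out and 3257 with the replicate block. The lower count over all tested genes was 2006, between 1399 and 1943 with one library left out and 2750 with the replicate block. It was 1986 of 21019 with no filter and 1804 of 12429 with centring. The causes were not tested. Leaving out 1 library also leaves fewer degrees of freedom, and the part of that in these counts was not tested. The replicate block added calls for INCENP and ESPL1 and ended none of the 28. Signs changed with centring for MAD2L1 (0.00), PTTG1 (0.13), BIRC5 (-0.01), CDC25C (-0.10), CENPE (0.49), AURKA (-0.02) and CDC20 (-0.04), all log2. Without one library, BUB3 lay between -0.09 and 0.07 and CENPE between -0.15 and 0.07. Median scaling ended 7 calls of mitosis genes, no filter 9, no trend 6 and limma-voom 4. Pseudocounts and quantile normalization ended none. SPC25 had the fewest reads of the 39 genes, 446 in shCTL and 416 in shHSF1. The part of its second listing on an alternate contig in this was not tested.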
